A study of Mus musculus with 30 samples.

Results

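The antioxidant and glutathione system of the mouse retina was followed through 10 genes over 10 groups: Hmox1, Nqo1, Gclc, Gclm, Mgst1, Gsta4, Gstm1, Txnrd1, Srxn1 and Sod2. They were chosen by name, as the probe sets whose platform gene symbol is one of these, and all 10 were among the 12393 genes measured on the arrays. Where a gene had several probe sets, the one with the highest mean over all arrays stood for it and the others served as a check. RNA from 30 retinas was hybridised to 30 expression arrays, with 1 retina from each pup and 3 pups in a group. All groups but 1 went through oxygen-induced retinopathy (OIR): 5 days in 75% oxygen beginning at postnatal day 7 (P7), a time when retinal capillaries are lost, followed by room air. One untreated group was kept in normoxia and 1 untreated group went through OIR. The other 8 groups all went through OIR and were injected into the vitreous at P5, ahead of the oxygen, or at P12, on return to room air. On each day the injection was saline, 100000 ECFC (cells grown out as endothelial colonies), 10000 CD34+ cells (a surface marker of blood-forming progenitors), or both together at 110000 cells, called the combination. No strain is named. Every label puts the retina at P17, yet the protocol has collection on P12 or on P17, and by the design text P5 injection went with P12 collection. If that pairing holds, injection at P5 and an earlier collection cannot be told apart in any comparison of a P5 group with a group outside P5.

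Cells clear reactive oxygen and reactive chemicals through glutathione, through the thioredoxin system and through dedicated enzymes. Many of these genes carry the antioxidant response element in their promoters, which the transcription factor NRF2 binds once oxidants or electrophiles free it from its inhibitor KEAP1. In the retina, photoreceptors use much oxygen, and Müller glia, astrocytes, microglia and the pigment epithelium all express antioxidant enzymes. Hmox1 breaks down haem and Nqo1 reduces quinones. Gclc and Gclm are the catalytic and modifier subunits of glutamate-cysteine ligase, the first enzyme of glutathione synthesis. Mgst1, Gsta4 and Gstm1 are glutathione transferases, which join glutathione to reactive aldehydes and foreign chemicals. Txnrd1 is the cytosolic thioredoxin reductase, Srxn1 restores over-oxidised peroxiredoxins, and Sod2 turns superoxide into hydrogen peroxide inside mitochondria.

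The promoter windows of RefSeq on GRCm38.p6, from 250 bases before to 50 bases after a transcript start, were searched on both strands for the antioxidant response element core TGACNNNGC, since it is the letters by which NRF2 target genes are usually recognised. A window was listed for 7 members, 11 windows in all, and 4 of the 7 members held the core: Srxn1, Gclm, Mgst1 and Txnrd1. Of all 27025 genes with a window, 14.0% held it. Hmox1, Gclc and Gsta4 had no entry. The stretches of 30 bases around the 4 cores are shown with the core in capitals. All 4 genes lie on the plus strand, and the capitals are the core as it appears on that strand, so TGACNNNGC itself reads on the opposite strand.
Srxn1, chr2:152105542-152105571: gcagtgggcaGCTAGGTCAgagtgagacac
Gclm, chr3:122245413-122245442: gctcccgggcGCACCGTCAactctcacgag
Mgst1, chr6:138140461-138140490: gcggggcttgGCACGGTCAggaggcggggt
Txnrd1, chr10:82859104-82859133: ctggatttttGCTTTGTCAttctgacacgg
The core lay at -134 to -126 from the start in Gclm, at -92 to -84 in 1 of 3 windows of Txnrd1, at -56 to -48 in 1 of 2 windows of Mgst1, and at 29 to 37 after the start in Srxn1. The core can overlap the AP-1 motif TGACTCA, which none of these 4 matches contained. The hypoxia response core ACGTG was in the windows of Gstm1 and Gclm and in those of 21.8% of all genes. A match is a string of letters and does not show binding. The windows of Nqo1 and Sod2 held neither string, which says only that these letters are not in those windows.

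Values are deposited log2 levels, on which 1 unit is a doubling, and levels of different genes are not compared because each has its own probes. Array medians ran from 8.16 to 8.49, and the mean of 7 rod photoreceptor markers lay between 13.001 and 13.39 on all 30 arrays. The mean of 12 lens markers ran from 7.24 to 13.92 on the 12 P5 arrays and from 5.93 to 8.62 on the other 18, so lens RNA differed widely between arrays. Lens, pigment epithelium and microglia markers are given beside the results that they move with. The hybridisation control probe sets, which read RNA added in the laboratory, averaged 13.23 to 13.65 on the 12 P12 arrays and 11.86 to 12.96 on the remaining 18, with no overlap. In bulk tissue, fewer cells of a type and less RNA per cell cannot be told apart. A gene is called changed at an adjusted p under 0.05 from limma, a linear model fitted to all 12393 genes, and each difference is given ± SE. Statements that groups overlap or do not overlap only describe the retinas, since the share of all genes without overlap was not counted. Nothing in the labels says that pups of a group came from separate litters, so p-values measure the spread between these retinas.

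On the highest-mean probe set of each gene, the groups differed most for Hmox1 and least for Sod2; a further Sod2 probe set ran more widely, with group means from 8.64 to 9.51. Between the lowest and the highest group mean, Hmox1 spanned 4.78 log2 units, Mgst1 2.30, Gstm1 1.34 and Nqo1 1.305. The spans were 0.91 for Srxn1, 0.84 for Txnrd1, 0.69 for Gsta4, 0.54 for Gclm, 0.52 for Gclc and 0.28 for Sod2. Retinas injected with CD34+ cells at P5 had the highest mean for 6 members, Mgst1, Hmox1, Nqo1, Gsta4, Gstm1 and Sod2, and the lowest for Srxn1. P12 saline had the highest mean for Gclc, Gclm and Srxn1, and untreated OIR for Txnrd1. Further probe sets often gave another order. P12 saline was highest on both further probe sets of Sod2 and of Txnrd1. On the second of Gclc it was lowest and P5 CD34 highest. The second of Mgst1, which was dim, was highest in P12 CD34, and some of Srxn1 had another highest group. All Gstm1 probe sets were highest in P5 CD34. Along the order of group means on the highest-mean probe sets, most neighbours overlapped. All 9 neighbouring pairs did so for Gclm, Txnrd1, Srxn1, Gsta4, Gstm1 and Sod2, 8 of 9 for Mgst1, Nqo1 and Gclc, and 7 of 9 for Hmox1. Neighbours stood apart at the top of the order for Mgst1, where P5 CD34 lay above the P5 combination, and for Nqo1, where it lay above P5 saline. They stood apart at the bottom for Hmox1, where normoxia lay below P5 ECFC and P5 ECFC below P12 ECFC. The spread between pups was also widest for Hmox1, with a median within-group SD of 1.35, against 0.32 for Mgst1 and 0.052 for Sod2.

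**Figure D1:**
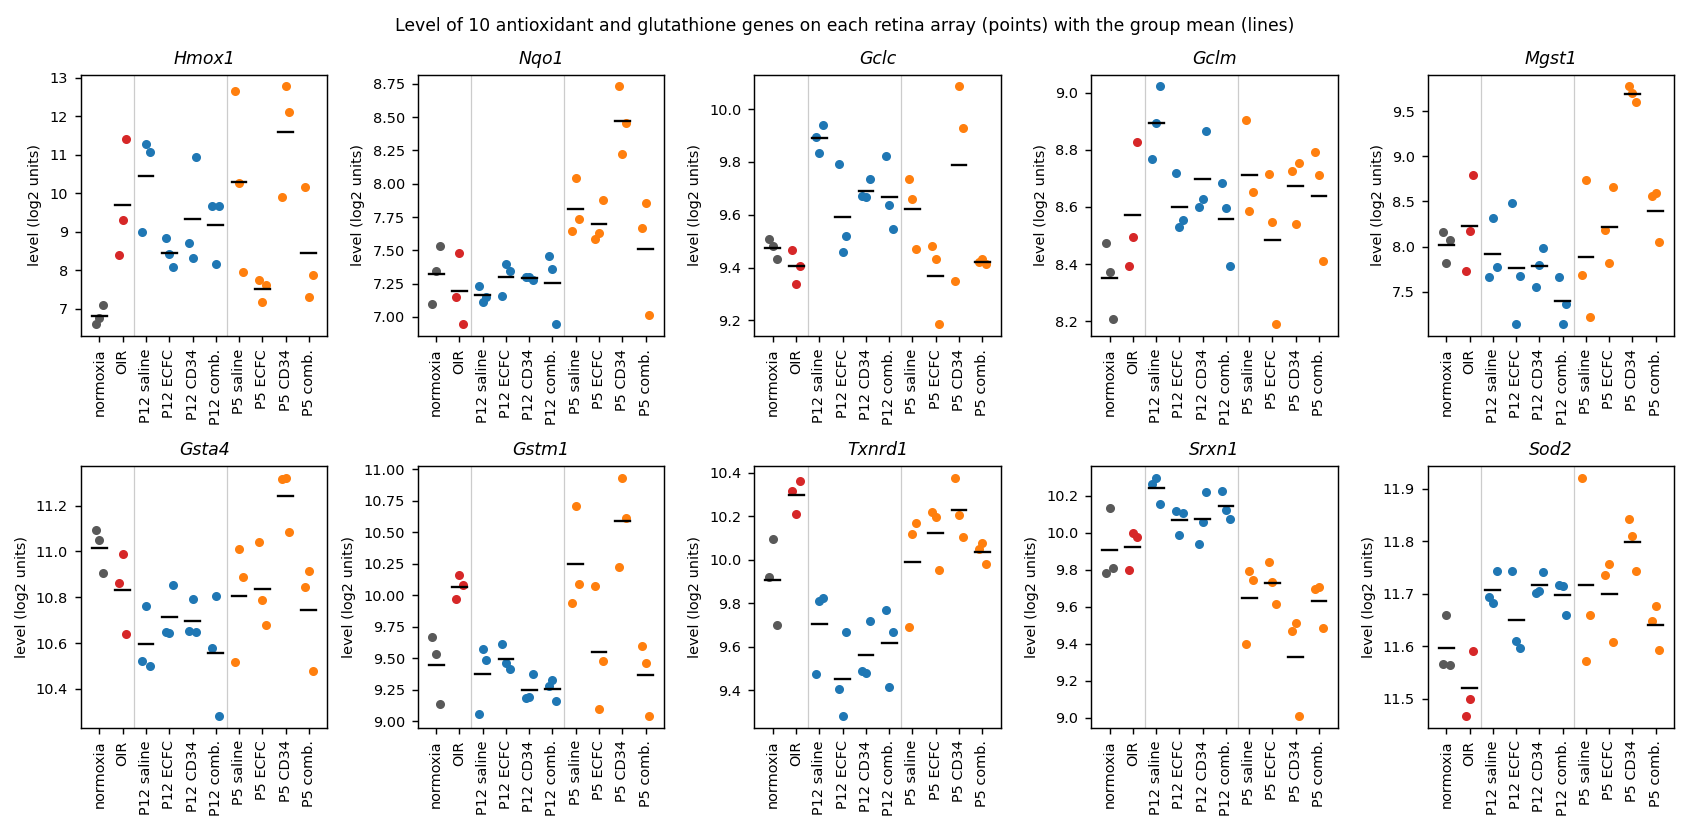
Level of each of the 10 genes (y axis, log2 units, a separate scale for each gene) on each of 30 arrays, by group (x axis). Points are single retinas, lines are group means, and colours mark normoxia, untreated OIR, P12 groups and P5 groups. The 3 Mgst1 points of P5 CD34 lie at 9.60 to 9.77, above all others, while the Hmox1 points of P5 saline run from 7.94 to 12.66.

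The first comparison asks what OIR alone does, with untreated OIR set against normoxia. None of the 10 members passed the test in either direction, while 4.56% of all genes did. An unadjusted p under 0.05 from limma was found for 3 of the 10 members and for 2455 of all 12393 genes. Hmox1 came nearest. Its level was 6.59, 6.77 and 7.09 in normoxia and 8.40, 9.31 and 11.41 in OIR. Every OIR retina lay above every normoxia retina, and the OIR retinas themselves were far apart. The difference was 2.89 ± 0.99 with an adjusted p of 0.095. Gstm1 read 9.67, 9.53 and 9.13 in normoxia and 9.97, 10.16 and 10.08 in OIR, a difference of 0.62 ± 0.22 (adjusted p 0.106). Txnrd1 read 9.92, 10.09 and 9.70 against 10.32, 10.21 and 10.36, a difference of 0.39 ± 0.14 (adjusted p 0.104). In both genes the groups did not overlap. For how many of all genes the same holds was not counted. The other 7 members overlapped between the groups, with differences from -0.19 for Gsta4 to 0.22 for Gclm. Over the 10 members the median difference was 0.11, and over all genes it was -0.02. Of the genes called in this comparison 78.8% were higher in OIR on the deposited scale; the share was 64.6% once arrays were quantile normalized and 53.25% once they were centred on their medians.

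The wider antioxidant pathway held 76 other measured genes, in lists written with earlier results of these data known. In OIR 3 of the 76 rose, none fell and 73 did not pass, a share of 3.95%. Maff, a small MAF protein that pairs with NRF2 and its relatives, rose by 2.18 ± 0.30 (adjusted p 5.54e-05). Prdx4, the peroxiredoxin of the endoplasmic reticulum, rose by 1.07 ± 0.20 (0.00193), and Slc1a4, a transporter of neutral amino acids, rose by 0.74 ± 0.14 (0.00171). Beside these, 3 of 10 microglia and macrophage markers and 4 of 7 endothelial markers were higher in OIR. Of 8 Müller glia markers Aqp4 was lower, by 0.87 ± 0.17 (adjusted p 0.00203), and Vim was higher, by 0.49 ± 0.14 (0.0461). None of the 4 astrocyte and reactive glia markers was called, but their median difference was 1.996, and their mean was 7.67 to 10.18 in OIR and 7.09 to 7.15 in normoxia, without overlap. With that mean as a covariate Hmox1 was 2.01 ± 1.06 (adjusted p 0.385), Gstm1 0.76 ± 0.24 (0.115) and Txnrd1 0.35 ± 0.16 (0.303). With the microglia mean they were 2.70 ± 1.19 (0.308), 0.79 ± 0.26 (0.128) and 0.36 ± 0.17 (0.336). With the lens mean as a covariate 2 members were called, both higher in OIR, and with the hybridisation control mean 1 was, also higher. The part of the endothelial and Müller glia markers was not tested.

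Saline injected at P12, set against untreated OIR, shows what the injection itself goes with. Of the members 3 changed, where 21.3% of all genes did: Gclc rose, and Txnrd1 and Gstm1 fell. An unadjusted p under 0.05 was found for 6 members and for 4170 of all 12393 genes. Gclc read 9.47, 9.34 and 9.41 in OIR and 9.90, 9.83 and 9.94 after P12 saline. All 3 injected retinas lay above the OIR retinas, by 0.48 ± 0.13 on average (adjusted p 0.0102), or 1.40-fold. Txnrd1 read 10.32, 10.21 and 10.36 in OIR and 9.48, 9.81 and 9.82 after saline. Here all 3 injected retinas lay below, and the level fell by 0.59 ± 0.14 (adjusted p 0.00339). Gstm1 read 9.97, 10.16 and 10.08 in OIR and 9.06, 9.58 and 9.49 after saline, again without overlap, and fell by 0.69 ± 0.22 (adjusted p 0.0265). The modifier subunit Gclm differed by 0.32 ± 0.14 (adjusted p 0.101), Srxn1 by 0.32 ± 0.13 (0.0781) and Sod2 by 0.19 ± 0.08 (0.0886), all upward and none called; Gclm overlapped between the groups, and Srxn1 and Sod2 did not. Mgst1 at -0.31, Hmox1 at 0.74, Nqo1 at -0.03 and Gsta4 at -0.24 overlapped between the groups. The median over the members was 0.08 and over all genes -0.03.

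The calls in this comparison depended on the probe set and on the scale. The second probe set of Gclc was lower after saline, with a difference of -0.39 ± 0.13 (adjusted p 0.0275), against the rise of the first. Txnrd1 had the same split: its second and its last probe set differed by 0.42 ± 0.20 (adjusted p 0.151) and 0.42 ± 0.14 (0.029), upward. Over the 30 arrays the first Gclc probe set correlated with the second at r = 0.14, and that of Txnrd1 at 0.14 and -0.58, so these probe sets do not track each other and the direction for the whole gene is not settled. Sod2 differed in the other way, with its first probe set uncalled and both others called higher, by 0.42 ± 0.08 (0.000517) and 0.73 ± 0.11 (9.02e-05). Gstm1 is one of a family with closely similar sequences, and its first probe set is of a type that can read relatives. The probe set that followed it at r = 0.99 was also lower after saline, with a difference of -0.71 ± 0.22 (0.0224).

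**Figure D2:**
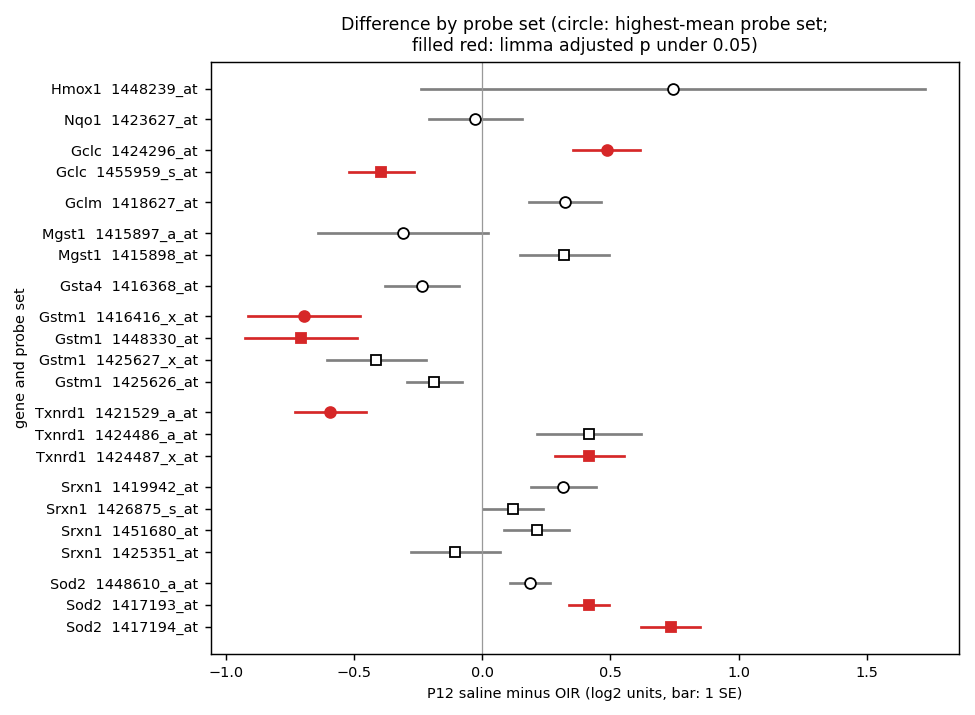
Difference between P12 saline and untreated OIR (x axis, log2 units, bars 1 SE) for each probe set of the 10 genes (y axis), each from limma over 3 arrays a group. Filled red marks an adjusted p under 0.05; the probe sets of Gclc (0.48 and -0.39) and of Txnrd1 (-0.59, 0.42 and 0.42) lie on both sides of 0.

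Entered as a covariate, the hybridisation control mean, which splits P12 arrays from the rest, left calls on none of the 3: Gclc was 0.24 (adjusted p 0.371), Txnrd1 -0.21 (0.385) and Gstm1 -0.58 (0.225). With it 1 member outside these 3 was called higher after saline. In this comparison the injection and that difference between arrays cannot be told apart. Gstm1 also lost its call under median centring (adjusted p 0.054) and without P12 saline replicate 1 (0.148), OIR replicate 2 (0.089) or OIR replicate 3 (0.0618). Median centring moved the median of all genes from -0.03 to 0.09, and Gclc was then 0.60 and Txnrd1 -0.48. It moved the share of called genes that were higher from 27.9% to 51.6%.

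Of the 76 other pathway genes, 4 rose and 10 fell after P12 saline, a share of 18.42% called, which is no more than the 21.3% of all genes. In the transferases Gstm4 fell by 0.58 ± 0.12 (adjusted p 0.000843) and Gstp1 by 0.45 ± 0.11 (0.00573), while Gstm3 rose by 0.87 ± 0.18 (0.00126). In glutathione synthesis Gss, glutathione synthetase, fell by 1.11 ± 0.32 (0.014). Gpx4, which reduces lipid peroxides in membranes, fell by 0.39 ± 0.10 (0.00744), and Sod3, the extracellular superoxide dismutase, fell by 0.96 ± 0.31 (0.0281). Among regulators, Nfe2l1, a relative of NRF2, fell by 0.61 ± 0.14 (0.00274), and Cul3, part of the ligase that degrades NRF2, rose by 0.28 ± 0.08 (0.0187). Me1, malic enzyme and a source of NADPH, rose by 0.58 ± 0.15 (0.00655). Among the cell type markers 3 were called: Apoe of the Müller glia list fell by 1.64 ± 0.26 (adjusted p 9.44e-05), Pde6a of the rod list rose by 0.48 ± 0.11 (0.00255) and Pecam1 of the endothelial list rose by 0.53 ± 0.17 (0.0302). Their part in the member results was not tested. None of the lens, pigment epithelium or microglia markers was called.

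Saline injected at P5 was compared with untreated OIR and with normoxia, and the 2 comparisons share the 3 saline retinas. Against untreated OIR 1 member changed, where 8.69% of all genes did, and it was Nqo1. Nqo1 read 7.15, 7.48 and 6.94 in OIR and 7.65, 8.04 and 7.74 after P5 saline. The groups did not overlap, and Nqo1 rose by 0.62 ± 0.18 (adjusted p 0.036), or 1.53-fold. Against normoxia, where Nqo1 read 7.10, 7.34 and 7.53, the difference was 0.48 ± 0.18 and was not called (adjusted p 0.103). In the comparison with normoxia 2 members changed, where 8.10% of all genes did: Hmox1 rose by 3.47 ± 0.99 (adjusted p 0.0304), or 11.1-fold, and Gstm1 by 0.80 ± 0.22 (0.0247), or 1.74-fold. Hmox1 read 12.66, 10.27 and 7.94 after P5 saline, so it lay above all 3 normoxia retinas while its own retinas spread more widely than in any other group. Gstm1 read 9.94, 10.71 and 10.09, also above all normoxia retinas. The other 9 members against OIR had differences from -0.34 for Mgst1 to 0.58 for Hmox1, and Gclc, Txnrd1 and Srxn1 did not overlap between the groups without being called. For Srxn1, which was -0.28 with its first probe set, a pair of further probe sets was called lower, at -0.48 ± 0.13 (adjusted p 0.0207) and -0.76 ± 0.17 (0.00872). The median over the members was 0.16 against OIR and 0.13 against normoxia, and over all genes 0.02 in both. Under median centring the share of called genes that were higher against normoxia went from 48.2% to 33.3%.

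Lens, pigment epithelium and endothelial markers moved with these P5 results. Against OIR all 12 lens markers and 6 of 11 pigment epithelium markers were higher after P5 saline; against normoxia it was 11 of 12 and 3 of 11. Of 7 endothelial markers 4 were lower after P5 saline than in OIR (Cdh5, Emcn, Pecam1 and Tie1, list median -0.85), and 1 was higher than in normoxia (Pecam1). The part of the endothelial markers was not tested. The lens mean was 10.37 to 13.58 after P5 saline, 5.93 to 6.90 in OIR and 6.17 to 8.62 in normoxia. The pigment epithelium mean was 8.46 to 10.08, 7.79 to 7.91 and 8.01 to 8.36 in the same groups. With the pigment epithelium mean as a covariate Nqo1 was 0.15 ± 0.20 against OIR (adjusted p 0.737). With the lens mean as a covariate Nqo1 was 0.82 ± 0.27 (0.117), Hmox1 against normoxia 0.85 ± 1.10 (0.65) and Gstm1 0.35 ± 0.27 (0.42). The Nqo1 call against OIR was also lost without any 1 of the 3 P5 saline retinas, OIR replicate 1 or OIR replicate 3 (adjusted p from 0.0527 to 0.168), and the Hmox1 call against normoxia without P5 saline replicate 1 (2.29, adjusted p 0.176) or 2 (0.0777) or any 1 normoxia retina (0.0685 to 0.0715). It was lost as well with array weights (2.30, adjusted p 0.15) and with the microglia (3.35, 0.0641) or reactive glia mean (3.002, 0.0656) as a covariate. Gstm1 lost its call without P5 saline replicate 2 (0.154) or normoxia replicate 3 (0.128), and with the pigment epithelium mean as a covariate (0.0873). A fit of only the 2 groups compared ended all 3 calls (0.13, 0.187 and 0.188).

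Other pathway genes were called about as often as genes in general after P5 saline. Against OIR 5 of 76 rose and 2 fell, a share of 9.21% beside 8.69% of all genes, and against normoxia 5 rose and none fell, 6.58% beside 8.10%. Transferases were among them in both: Gstm2 rose by 1.12 ± 0.30 against OIR (adjusted p 0.0221) and by 1.32 ± 0.30 against normoxia (0.00906), and Gstp1 by 0.38 ± 0.11 (0.0365) and 0.46 ± 0.11 (0.0127). Gstt1 rose by 0.58 ± 0.14 against OIR (0.0112). Maff fell by 1.71 ± 0.30 against OIR (0.00108), and Bach1, a repressor of Hmox1, fell by 0.44 ± 0.14 (0.0438). Txn2, the mitochondrial thioredoxin, rose by 0.41 ± 0.11 (0.0227).

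**Figure D3:**
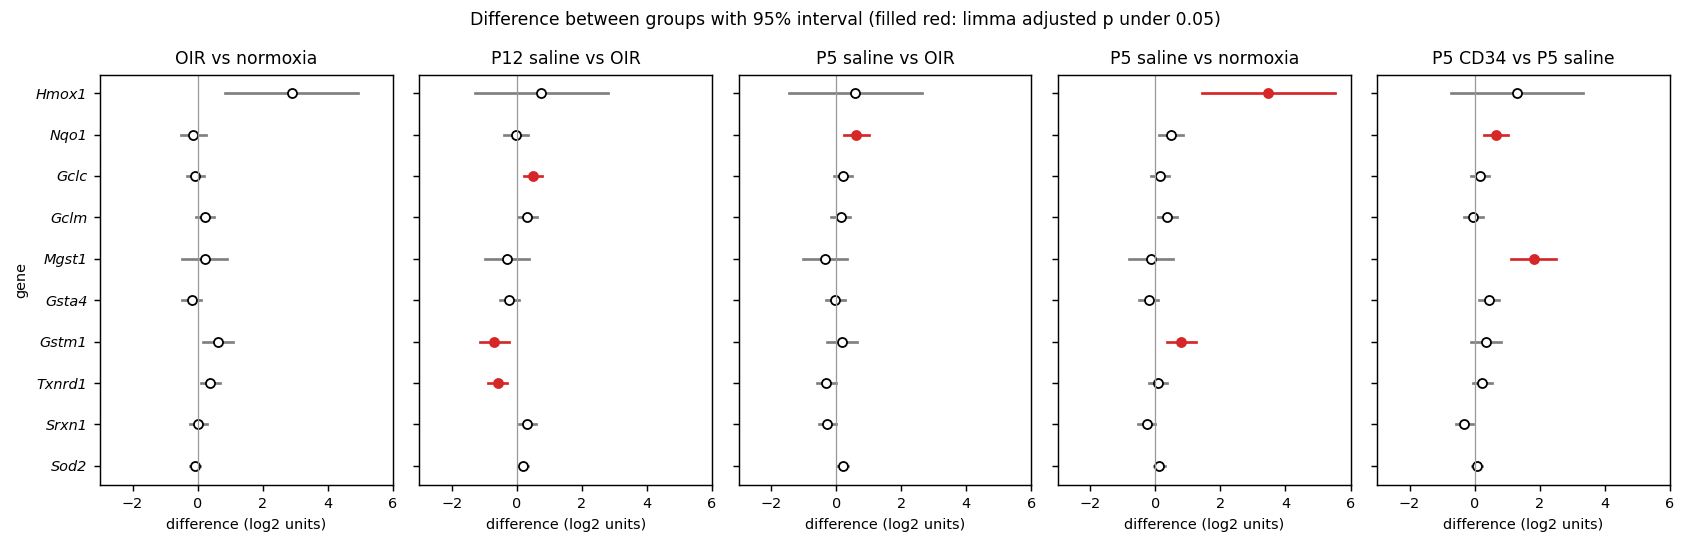
Log2 difference (x axis) with its 95% interval for the 10 genes (y axis) in 5 comparisons, each from limma over all 30 arrays with 3 arrays a group. Filled red points have an adjusted p under 0.05: none in OIR against normoxia, 3 for P12 saline against OIR, 1 and 2 for P5 saline against OIR and normoxia, and 2 for P5 CD34 against P5 saline.

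The cell treatments of P12 were set against P12 saline. No member was called with limma for any of the 3 treatments. The share of all genes called was 0.0161% for ECFC, 0% for CD34+ cells and 0% for the combination. An unadjusted p under 0.05 was found for 1996, 643 and 1226 of all 12393 genes, and for 2, 0 and 1 members. After ECFC these were Gclc, at -0.30 ± 0.13 (adjusted p 0.272), and Gclm, at -0.29 ± 0.14 (0.299), and after the combination Gclm, at -0.34 ± 0.14 (0.497). Gclm read 8.77, 8.89 and 9.02 after saline, 8.72, 8.53 and 8.55 after ECFC, 8.60, 8.63 and 8.86 after CD34+ cells and 8.69, 8.60 and 8.39 after the combination. All saline values lay above those of ECFC and the combination and overlapped those of CD34+ cells. Hmox1 read 8.99, 11.28 and 11.08 after saline and 8.83, 8.41 and 8.09 after ECFC, without overlap. Its difference was -2.01 ± 0.99 (adjusted p 0.318, 95% interval -4.05 to 0.03). For Mgst1 the differences were -0.16 for ECFC, -0.14 for CD34+ cells and -0.53 for the combination. The 3 comparisons share the saline retinas, and the medians over the members were -0.16, -0.14 and -0.11, against 0.02, 0.05 and -0.02 over all genes. None of the 76 other pathway genes was called for any of these treatments.

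At P5, set against P5 saline, CD34+ cells alone gave calls. Mgst1, a membrane-bound transferase and peroxidase, and Nqo1 were higher after CD34+ cells, where 8.46% of all genes were called. Mgst1 read 7.69, 8.74 and 7.22 after saline and 9.77, 9.70 and 9.60 after CD34+ cells. These 3 retinas lay above the 27 others of the series, the highest of which was OIR replicate 3 at 8.79. Mgst1 rose by 1.81 ± 0.33 (adjusted p 0.00281), or 3.51-fold. Nqo1 read 7.65, 8.04 and 7.74 after saline and 8.73, 8.22 and 8.46 after CD34+ cells. These too lay above all other arrays, and Nqo1 rose by 0.66 ± 0.18 (adjusted p 0.0256), or 1.58-fold. Gsta4, a transferase for the lipid peroxidation product 4-hydroxynonenal, read 10.52, 11.01 and 10.89 against 11.32, 11.32 and 11.09. It did not overlap and was not called (0.44 ± 0.14, adjusted p 0.0616). Hmox1 was 9.90, 12.78 and 12.10 after CD34+ cells and overlapped saline (1.3 ± 0.99, adjusted p 0.486). Srxn1 was 9.47, 9.51 and 9.01 against 9.40, 9.79 and 9.75 (-0.31 ± 0.13, adjusted p 0.129). Of the 10 members 8 had a positive difference, beside 44.6% of all genes. The median was 0.29 over the members and -0.03 over all genes.

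The P5 CD34 retinas also differed in cell type markers. Among microglia and macrophage markers 3 of 10 were higher than after P5 saline (Aif1, C1qb and Csf1r), and among pigment epithelium markers 4 of 11 (Tyr, Dct, Tyrp1 and Pmel). No lens marker was. The pigment epithelium mean was 10.16 to 10.50 against 8.46 to 10.08 after saline, without overlap, and the microglia mean 8.03 to 10.49 against 7.72 to 8.49. One P5 CD34 retina stood apart, replicate 1, with a lens mean of 7.24 where the others had 13.92 and 13.81, and a microglia mean of 10.49 where they had 8.03 and 8.84. Without it Mgst1 was 1.77 (adjusted p 0.0081) and Nqo1 0.53 (0.124). Mgst1 stayed called with the pigment epithelium mean (1.48 ± 0.37, adjusted p 0.0275), the microglia mean (1.47 ± 0.38, 0.0351) or the reactive glia mean (1.49 ± 0.33, 0.0184) as a covariate. Nqo1 did not, with 0.36 ± 0.18 (0.302), 0.50 ± 0.21 (0.216) and 0.63 ± 0.20 (0.0828).

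Nqo1 also lost its call without P5 saline replicate 1 (adjusted p 0.0827) or 3 (0.0901) or P5 CD34 replicate 3 (0.0547). The Mgst1 call was kept without any 1 of the 6 retinas (1.48 to 2.24, adjusted p 0.00113 to 0.0223) but not in a fit of the P5 saline and P5 CD34 groups alone (0.293), where Nqo1 was lost as well (0.309). The second Mgst1 probe set was dim, with a mean of 4.53 over all arrays, and was not called (0.095 ± 0.17, adjusted p 0.815).

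Neither ECFC nor the combination injected at P5 gave a call against P5 saline. The share of all genes called was 0% for ECFC and 0% for the combination. An unadjusted p under 0.05 was found for 779 and 978 of all 12393 genes, and for 2 and 1 members. Hmox1 read 7.75, 7.18 and 7.61 after ECFC, all below the saline retinas at 12.66, 10.27 and 7.94, with a difference of -2.78 ± 0.99 (adjusted p 0.636). Gstm1 read 10.07, 9.10 and 9.48 after ECFC (-0.70 ± 0.22, adjusted p 0.505) and 9.59, 9.46 and 9.04 after the combination (-0.88 ± 0.22, 0.283). The combination lay below all saline retinas and ECFC overlapped them. Mgst1 was 0.34 ± 0.33 after ECFC and 0.52 ± 0.33 after the combination, each within the spread between pups. The lens mean was 8.51 to 9.39 after ECFC and 8.37 to 11.89 after the combination, mostly under the saline range of 10.37 to 13.58.

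A call for CD34+ cells and none for the others does not show that the treatments differ, so ECFC and the combination were set directly against CD34+ cells, in comparisons chosen after the values were seen. Both share the P5 CD34 retinas with the comparison above. After the combination 4 members were lower than after CD34+ cells alone, where 7.83% of all genes were called, and 4 were lower after ECFC, where 7.08% were. Mgst1 read 8.56, 8.59 and 8.05 after the combination and 8.18, 7.82 and 8.66 after ECFC. It was lower than after CD34+ cells in both, with differences of -1.29 ± 0.33 (adjusted p 0.017) and -1.47 ± 0.33 (0.00813). Nqo1 read 7.67, 7.85 and 7.02 after the combination and 7.59, 7.63 and 7.88 after ECFC, with differences of -0.96 ± 0.18 (0.00275) and -0.77 ± 0.18 (0.0107). Gstm1, at 10.23, 10.93 and 10.61 after CD34+ cells, differed by -1.22 ± 0.22 (0.00182) for the combination and by -1.04 ± 0.22 (0.00577) for ECFC. In these 3 genes no CD34 retina overlapped the others. Gclc was not called on its first probe set, at -0.37 ± 0.13 (0.0933) and -0.42 ± 0.13 (0.0523), but its second was lower in both, at -0.42 ± 0.13 (0.0389) and -0.52 ± 0.13 (0.0131).

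Gsta4 passed for the combination, at -0.50 ± 0.14 (adjusted p 0.0353), and was -0.41 ± 0.14 for ECFC (0.0978). Hmox1 passed for ECFC, at -4.08 ± 0.99 (0.012), a 16.9-fold lower level, and was -3.14 ± 0.99 for the combination (0.0521), where 1 retina at 10.16 overlapped. Srxn1 went the other way in its estimates, 0.30 ± 0.13 and 0.40 ± 0.13, with neither called (0.169 and 0.0567). The medians over the members were -0.43 and -0.41, beside -0.01 and 0.00 over all genes. Lens list medians were -1.98 for the combination and -2.71 for ECFC, where 1 of 12 lens markers was called lower (Bfsp1). The lens mean was 7.24 to 13.92 after CD34+ cells. Microglia list medians were -0.94 and -0.53 and reactive glia medians -0.67 and -1.17, with no marker called. Aqp4 of the Müller glia list was higher after the combination, by 0.57 ± 0.17 (adjusted p 0.0338). Pigment epithelium markers moved with these results, 6 of 11 being lower after the combination and 5 of 11 after ECFC. With their mean as a covariate 1 member was called in each of these comparisons, Gstm1 for the combination and Hmox1 for ECFC, and Mgst1 was then -0.73 (0.483) and -0.92 (0.343). Leaving out P5 CD34 replicate 1 or P5 combination replicate 3 ended the Mgst1 call for the combination (0.054 and 0.071), and leaving out P5 ECFC replicate 2 ended the Mgst1 and Hmox1 calls for ECFC (0.0524 and 0.0523). The Nqo1 call for ECFC was lost without P5 CD34 replicate 1 (0.0687) or P5 ECFC replicate 1 (0.0594), and the Gsta4 call in 5 of 6 such fits, all but that without P5 CD34 replicate 3 (0.0505 to 0.183). A fit of only the 2 groups compared left no member called in either comparison. Over the 13 other settings tried, that fit and the covariates included, the Hmox1 call for ECFC was lost in 2, with estimates from -5.71 to -2.73. For the combination the Mgst1 call was lost in 3 (-1.30 to -0.73) and the Gsta4 call in 4 (-0.54 to -0.31).

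Other genes of the pathway were high in the P5 CD34 retinas as well. Against P5 saline 11 of 76 rose and 2 fell, a share of 17.11% beside the 8.46% of all genes. Among peroxidases, superoxide dismutases and catalase 5 of 9 rose, with a list median of 0.56, including Gpx1 by 0.59 ± 0.12 (adjusted p 0.00508), catalase (Cat) by 0.56 ± 0.13 (0.0093) and Gpx8 by 0.61 ± 0.15 (0.014). Among transferases 3 of 17 rose: Gsto1 by 1.29 ± 0.31 (0.0114), Gsta2 by 1.17 ± 0.33 (0.0299) and Gsta3 by 0.83 ± 0.26 (0.0438). Ephx1, an epoxide hydrolase, rose by 1.16 ± 0.25 (0.00614), and Ggct, which cleaves gamma-glutamyl amino acids, by 1.02 ± 0.31 (0.0449). Glrx, a glutaredoxin, fell by 0.45 ± 0.11 (0.0106) and Prdx2 by 0.37 ± 0.11 (0.0305). Of the 10 regulators of NRF2 none was called against saline. Against CD34+ cells, 16 of 76 were lower and none higher after the combination (21.05%, beside 7.83% of all genes). After ECFC 16 were lower and 3 higher (25%, beside 7.08%). These counts and those against saline share the same P5 CD34 retinas. With the pigment epithelium mean as a covariate the calls among all genes against P5 saline went from 1049 to 460. They went to 410 with the microglia mean, to 461 with the reactive glia mean and to 0 with only those 2 groups fitted. Against CD34+ cells the pigment epithelium mean took them from 970 to 249 for the combination and from 877 to 297 for ECFC. The pathway genes were not counted in these fits. Gss was among the lower ones in both, at -1.32 ± 0.32 (0.0113) and -1.31 ± 0.32 (0.0116), as were Gsta2 at -1.72 ± 0.33 (0.00307) and -1.74 ± 0.33 (0.00379), and Gpx3, the secreted peroxidase, at -1.33 ± 0.37 (0.0273) and -1.39 ± 0.37 (0.022). Nfe2l2, the gene of NRF2, was lower after ECFC, at -0.61 ± 0.18 (0.0443).

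Whether a treatment differed between the 2 injection days was tested as the difference of its effects, each against the saline group of its own day. For CD34+ cells 1 member passed, where 1.9% of all genes did. Mgst1 read 7.67, 8.31 and 7.78 after P12 saline and 7.55, 7.80 and 7.99 after CD34+ cells at P12, which overlapped, while at P5 the groups stood apart. The effect at P5 exceeded that at P12 by 1.95 ± 0.47 (adjusted p 0.036). The estimates for the other members ran from -0.15 for Srxn1 to 2.43 for Hmox1. Over all members 9 of 10 were positive, beside 38.6% of all genes. The median was 0.37 over the members and -0.08 over all genes. No member passed for ECFC, where 0.0323% of all genes did, or for the combination, where 0% did. An unadjusted p under 0.05 was found for 1480 and 1419 of all 12393 genes, and for 1 and 2 members. For the combination Mgst1 was 1.04 ± 0.47 (adjusted p 0.418) and Gstm1 -0.76 ± 0.31 (0.388). For ECFC Gstm1 was -0.82 ± 0.31 (0.336).
The Mgst1 call by day was the least stable of the calls on this gene. It was lost in 10 of 12 fits that left out 1 retina, all but those without P5 saline replicate 2 or P5 CD34 replicate 2, with estimates between 1.62 and 2.08 and adjusted p from 0.053 to 0.0946. It was lost as well with the pigment epithelium (1.65, adjusted p 0.101), microglia (1.595, 0.152) or reactive glia mean (1.499, 0.185) as a covariate.

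Within groups, single retinas with a higher mean of certain marker lists had more of certain members, or less in the case of Gstm1. Levels and marker means were taken as deviations from the group mean, and an exact permutation test exchanged retinas within groups, two-sided, over 40 relations in each set of arrays. Over the 12 P5 arrays, Nqo1 followed the pigment epithelium mean (Pearson's r = 0.79, exact p 0.000772, the smallest the design allows, adjusted p 0.0309; Spearman's rho = 0.85, exact p 0.000772). Without the 2 arrays farthest from the median r was 0.75. Hmox1 and the lens mean had r = 0.83 there (exact p 0.00386, adjusted p 0.0772; rho = 0.92, exact p 0.00231; r = 0.84 without the 2 farthest arrays), which did not pass after adjustment. P5 CD34 replicate 1 had both the lowest Hmox1 of its group, at 9.90, and the lowest lens mean. On the other 18 arrays r was 0.16 for Nqo1 with the pigment epithelium mean and -0.066 for Hmox1 with the lens mean.

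Over the other 18 arrays, where lens markers were low, Hmox1 followed the mean of the 4 astrocyte and reactive glia markers (r = 0.93, exact p 0.00131, adjusted p 0.0262; rho = 0.93, exact p 0.00129; r = 0.92 without the 2 farthest). Mgst1 followed the same mean (r = 0.79, exact p 0.00131, adjusted p 0.0262; rho = 0.80, exact p 0.00219; r = 0.74 without the 2 farthest). OIR replicate 3, with the highest reactive glia mean of these arrays at 10.18, also had the highest Hmox1 and Mgst1 of the 18. Hmox1 and Gclm each followed the microglia and macrophage mean (r = 0.66 for both, exact p 0.00347 and 0.00369, adjusted p 0.0295; rho = 0.79 and 0.70, exact p 0.00261 and 0.00426; 0.66 and 0.68 without the 2 farthest). Gstm1 ran against the pigment epithelium mean (r = -0.70, exact p 0.00366, adjusted p 0.0295; rho = -0.72, exact p 0.00604; -0.70 without the 2 farthest). On the P5 arrays r was -0.083 for Hmox1 and 0.10 for Mgst1 with the reactive glia mean, -0.13 for Hmox1 and 0.19 for Gclm with the microglia mean, and 0.13 for Gstm1 with the pigment epithelium mean. Whether a relation differs between the sets of arrays was not tested.

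**Figure D4:**
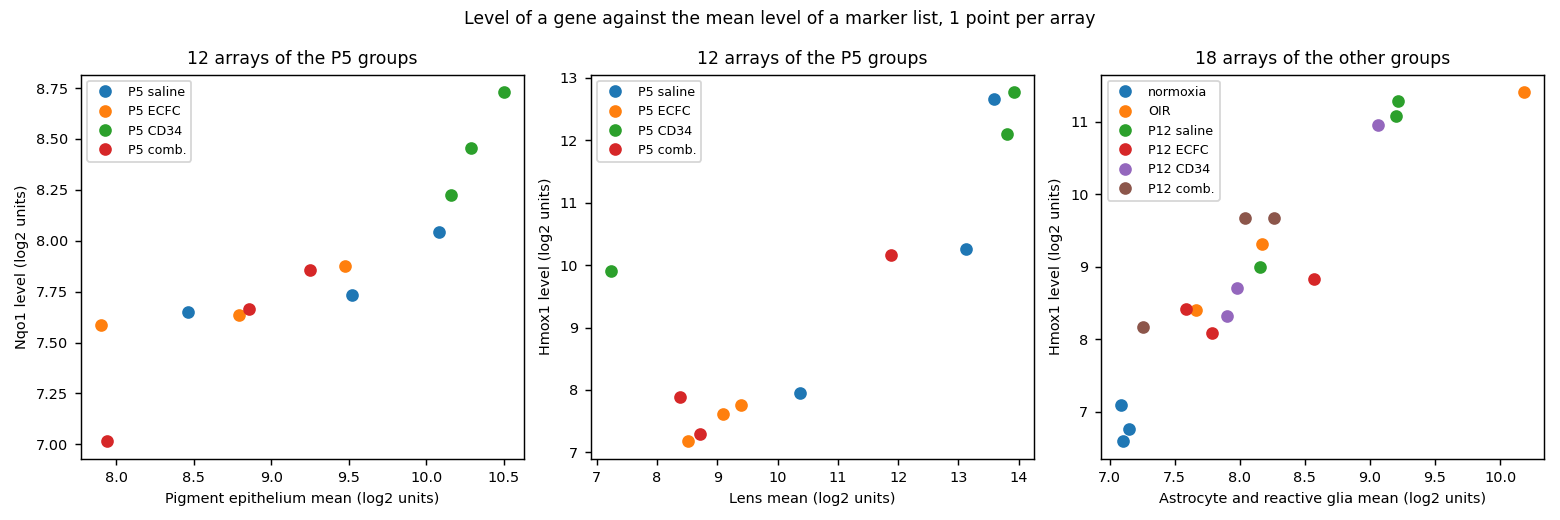
Level of Nqo1 or Hmox1 (y axis, log2 units) against the mean of a marker list (x axis, log2 units), 1 point per retina, coloured by group. Nqo1 runs with pigment epithelium markers (r of deviations 0.79) and Hmox1 with lens markers (0.83) on the 12 P5 arrays, and Hmox1 with reactive glia markers (0.93) on the other 18.

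The members did not move as 1 block over the 30 arrays. Among 45 pairs of members the highest correlation was r = 0.67 (rho = 0.56), between Nqo1 and Gsta4, and the lowest r = -0.68 (rho = -0.59), between Nqo1 and Srxn1. Outside the list, the gene most like Mgst1 was Col4a5, a basement membrane collagen (r = 0.89), followed by Ifi30 and Igfbp2 (0.88 and 0.87). For Nqo1 it was Cox8b (0.94), then Gpc3 and Col8a1 (0.90 and 0.89), and for Hmox1 S100a6, Tnfrsf23 and Pdlim1 (0.87, 0.87 and 0.86). The first probe set of Txnrd1 was most like Ykt6, Wbp1l and Dctn3 (0.93, 0.92 and 0.92), and Srxn1 most like Trim32, Pcyt1a and Ube2d1 (0.91, 0.90 and 0.90). The closest genes were weaker for Gclc (Btf3l4, 0.82), Gclm (Amz2, 0.82), Gsta4 (Sostdc1, 0.84), Gstm1 (Crim1, 0.83) and Sod2 (Wdr4, 0.77). These correlations describe arrays that share groups and dissection, are picked as the highest among all genes, and carry no test.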

How the data were processed

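The authors deposited log2 expression values of 22690 probe sets on each array, and these entered the tests unaltered. Partek is named in the submitters' processing notes. How the values were normalized is not given in the sources used here, nor is a version. Of the probe sets 64 were controls, 20380 had 1 gene symbol in the platform annotation, 691 several and 1555 none; 29 symbols had no RefSeq match. The probe set with the highest mean per symbol was kept, giving 12393 genes.

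A linear model in limma 3.58.1 (R 4.3.3) had a coefficient for each of 10 groups (30 arrays, 20 residual degrees of freedom, eBayes, two-sided, Benjamini-Hochberg over 12393 genes, or over 20380 probe sets for further probe sets of a gene); the procedure was tested on simulated data. Arrays give no counts, and 3 arrays per group limit the precision. No 2 arrays held identical values.

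The members, pathway lists (97 genes, 76 measured outside the members), marker lists and tests were chosen with earlier results of these data known. All members are named; of a list, at most the 3 called genes with the smallest adjusted p per comparison may be named, and 3 most alike genes per member. The alternatives tried were median centring, quantile normalization, every probe set as a feature, dropping the dimmest 30% of genes, trend and robust eBayes, array weights, a replicate block, fitting only the groups compared, lens and hybridisation control covariates (18 control probe sets), other probe sets and leaving out each array. Pigment epithelium, microglia and reactive glia covariates and the comparisons of ECFC and the combination with CD34+ cells at P5 were added after seeing the data.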

Additional observations from a re-analysis of the deposited data

Results flagged for a closer look

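Mgst1 was marked for a closer look because the effect of CD34+ cells against saline of the same day differed between the 2 injection days in a test of that difference: 1.95 ± 0.469 log2 units larger at P5 than at P12 (limma, adjusted p 0.036). The 3 retinas injected with CD34+ cells at P5 all lay above their saline group, and those injected at P12 overlapped theirs. No level of a member in its own group could be screened for outlying retinas, since groups of 3 are too small for that screen.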

How the results depend on the processing

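Over 150 member results, 17 of them called, 3210 alternative values were computed. Of these, 2823 kept direction and side of the threshold, and 92 lost and 81 gained a call. A further 210 changed sign without a call before or after, and 4 called results reversed. The reversals all came from other probe sets: Gclc -0.39 and Txnrd1 0.42 and 0.42 in P12 saline against OIR, and Mgst1 -0.049 in the CD34 effect by day. Members called, given as reported and then under each alternative that moved the count by more than 1.5 times, were as follows. OIR against normoxia went from 0 to 2 (lens covariate) and 1 (hybridisation control covariate). P12 saline against OIR went from 3 to 6 (quantile normalization), 5 (median centring), 7 (array weights) and 1 (hybridisation control, a member outside the 3). P5 saline against OIR went from 1 to 0 (lens, pigment epithelium, only the groups compared) and 3 (hybridisation control), with 0 to 1 on leaving out 1 array. P5 saline against normoxia went from 2 to 0 (lens, only the groups compared) and 1 (pigment epithelium, microglia, reactive glia), with 0 to 2 on leaving out 1 array. P12 ECFC went from 0 to 3 (array weights), P5 ECFC from 0 to 1 (hybridisation control), the P5 combination from 0 to 1 and the ECFC effect by day from 0 to 1 (array weights or hybridisation control). P5 CD34 against saline went from 2 to 5 (array weights), 4 (hybridisation control), 0 (only the groups compared) and 1 (pigment epithelium, microglia), with 1 to 3 on leaving out 1 array. The CD34 effect by day went from 1 to 4 (array weights), 2 (hybridisation control) and 0 (only the groups compared, pigment epithelium, microglia, reactive glia), with 0 to 1 on leaving out 1 array. The P5 combination against CD34+ cells went from 4 to 7 (hybridisation control), 0 (only the groups compared) and 1 (pigment epithelium), with 2 to 4 on leaving out 1 array, and P5 ECFC against CD34+ cells from 4 to 0 and 1 in the last 2 of these, with 2 to 5. Fitting only the groups compared leaves fewer arrays to estimate the spread; the cause of the other shifts was not tested. Replicate numbers did not pair the retinas: residual correlations of equal numbers ran from -0.45 to 0.45, and in 0 of 12 comparisons were all pairs over 0.1. With the replicate number as a block, 3 members were called in P12 saline against OIR and 3 in P5 CD34 against P5 saline, and the other counts were as reported. With 3 arrays per group, a difference that did not pass may still exist.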
